A study of Mus musculus with 17 samples.

Results

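Induced pluripotent stem cells (iPSC) that lack both copies of Nanog were set against wild-type (WT) iPSC by RNA sequencing. The 4 Nanog-null libraries were 2 samples each of clones G2 and G5, and the 3 WT libraries were 1 sample of strain 129/B6 (v6.5) and 2 samples of strain c57/b6, so that 7 of the 17 libraries of the series were compared. A gene was kept when both clones differed from the 129/B6 sample and from the c57/b6 samples, all 4 times in the same direction. The 4 comparisons called genes with edgeR's quasi-likelihood test and a Benjamini-Hochberg adjusted p under 0.05 over the 16059 genes tested, and 5224 genes (32.5%) were kept. Of these, 2957 (18.4%) were higher and 2267 (14.1%) were lower in the Nanog-null iPSC. The number kept is a product of the rule, and a comparison in libraries that the rule did not use, those of embryonic stem cells (ESC), is given further on.

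Nanog is a homeodomain transcription factor of the pluripotent epiblast. In mouse embryos the inner cell mass divides into Nanog-expressing epiblast and Gata6-expressing primitive endoderm, and these factors repress each other's programme. In mouse ESC, Nanog works with Oct4 (gene Pou5f1), Sox2 and other factors, and ESC without it can be propagated although they differentiate more readily. Reprogramming with retroviral Oct4, Sox2, Klf4 and c-Myc converts fibroblasts into iPSC.

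All 4 Nanog-null iPSC libraries carried the genotype Nanog -/-, strain 129/B6 (v6.5) and passage 6. Per the labels' protocols, the parental Nanog-/- ESC line was put into blastocysts, fibroblasts (MEF) of those embryos were sorted by a constitutive GFP, and they were transduced with retroviruses for mouse Klf4, Oct4 and Sox2, and in some cases also c-Myc. Which clones received c-Myc is not given in the sources used here. Colonies were picked onto feeder cells in 2i + LIF medium, that is, with a pair of kinase inhibitors and leukaemia inhibitory factor. The single 129/B6 WT iPSC sample (passage 6) came from the same library set, marked AC, as the Nanog-null clones, whereas both c57/b6 WT iPSC samples (passage 10 to 15) came from the set marked JI. Strain, passage and library set therefore cannot be told apart among the WT iPSC. Also used from set AC were 2 samples of the parental Nanog-null ESC (passage 6) and 2 of 129/B6 WT ESC (passage 10 to 15). From set JI, 2 samples of c57/b6 WT MEF (passage 2, grown in 10% fetal bovine serum) gave fibroblast levels. Each Nanog-null clone is 1 clone with 2 samples, both clones derive from 1 ESC line, and nothing in the labels says that the samples of a group came from cultures kept apart. The p-values therefore rest on a spread that may be technical. Loss of Nanog and descent from that ESC line cannot be told apart. The lone 129/B6 WT iPSC sample has no spread of its own and was taken to vary like the other groups.

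Libraries held 17.7 to 32.5 M fragments (M, mega) in Nanog-null iPSC, 26.9 M in the 129/B6 WT iPSC sample and 14 and 30.1 M in the c57/b6 WT iPSC samples. Genes for ribosomal proteins took 5.75 to 6.25% of fragments in Nanog-null iPSC, 8.5% in 129/B6 WT iPSC and 24.3 to 25.5% in c57/b6 WT iPSC. The c57/b6 samples thus stand apart from both other groups, and the part of this difference in any result was not tested. Clone G2 differed from 129/B6 WT iPSC in 10064 genes (62.7% of those tested) and clone G5 in 9627 (59.9%). Against c57/b6 WT iPSC the calls numbered 12969 for G2 (80.8%) and 12767 for G5 (79.5%). The WT iPSC themselves differed between 129/B6 and c57/b6 in 11511 genes (71.7%). The median log2 change over all genes was 0.01 for both clones against 129/B6, and 0.20 for G2 and 0.16 for G5 against c57/b6. The calls were not adjusted for these medians, so small changes called higher against c57/b6 may carry this shift. Higher genes made up 56.6% of kept genes, and 54% with DESeq2's size factors.

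**Figure D1:**
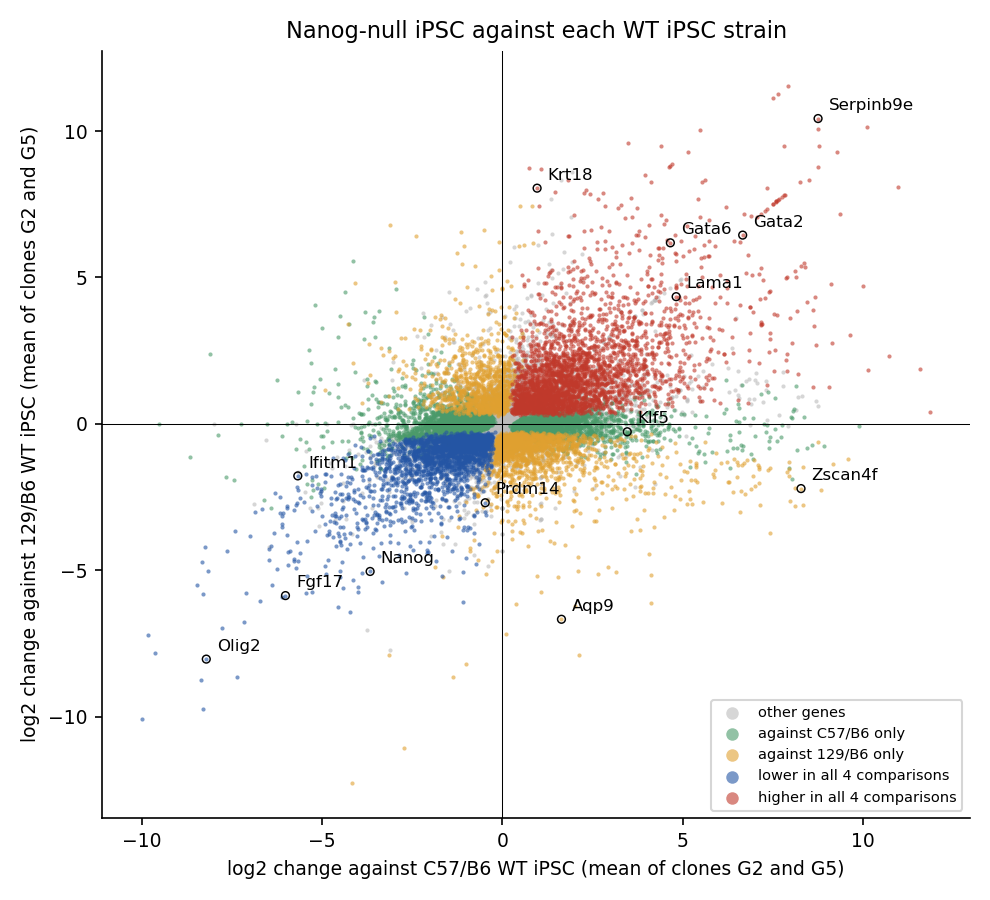
Each point is 1 of the 16059 genes tested, with the log2 change of Nanog-null iPSC (mean of clones G2 and G5) against c57/b6 WT iPSC on the x axis and against 129/B6 WT iPSC on the y axis. The 2957 kept-higher genes lie at the upper right and the 2267 kept-lower genes at the lower left, while genes called against 1 strain only lie along an axis, and genes called in opposite directions against the strains share the colour of those called against 129/B6 only.

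Nanog itself (ENSMUSG00000012396), the targeted gene, had 27.2 and 27.8 FPKM (fragments scaled by gene length and library size) in G2 and 40.0 and 43.0 FPKM in G5, against 762 FPKM in 129/B6 WT iPSC and 286 and 270 FPKM in c57/b6 WT iPSC. Every Nanog-null sample was below every WT sample, and signal above the 0.148 FPKM mean of MEF remained. Values for a whole gene do not show which part of the locus these fragments come from. The log2 change was -5.31 ± 0.12 (SE) for G2 and -4.78 ± 0.12 for G5 against 129/B6, and -3.93 ± 0.11 and -3.40 ± 0.11 against c57/b6 (adjusted p below 0.05 each, edgeR's quasi-likelihood test). Nanog-null ESC averaged 47.7 FPKM and 129/B6 WT ESC 571 FPKM. The Nanog promoter is shown because it holds the composite Oct4-Sox2 element through which the factors used in reprogramming are known to drive this gene. The window is chr6:122707239-122707538, plus strand (RefSeq, GRCm38.p6, 250 bases before to 50 after the start of the gene), and the capitals mark a match to TTTGCAT and ACAATG with 1 base of any kind between, 75 bases before the start. It was the only match on either strand in 27025 promoter windows, with every letter but that base required exactly. Looser forms of the element were not searched for, and a match describes letters in a window, not a bound site.
Nanog: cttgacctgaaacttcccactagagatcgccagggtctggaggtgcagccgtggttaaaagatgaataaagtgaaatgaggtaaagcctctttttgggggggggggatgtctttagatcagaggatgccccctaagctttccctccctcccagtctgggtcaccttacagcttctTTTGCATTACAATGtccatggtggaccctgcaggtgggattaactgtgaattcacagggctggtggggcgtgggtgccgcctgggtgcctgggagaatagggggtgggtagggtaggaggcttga

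Of the genes for the delivered factors, only Sox2 was kept, and fragments from a retroviral copy and from the chromosomal gene cannot be told apart. Sox2 had 41.5 and 41.8 FPKM in G2 and 38.5 and 39.8 FPKM in G5, against 156 FPKM in 129/B6 WT iPSC and 91.4 and 95.9 FPKM in c57/b6 WT iPSC, with no overlap. Pou5f1 had 553 and 507 FPKM in G2 and 591 and 613 FPKM in G5, against 640 FPKM in 129/B6 WT iPSC and 1449 and 1435 FPKM in c57/b6 WT iPSC. It was lower than in c57/b6 (log2 change -1.29 for G2 and -1.11 for G5) and did not pass the test against 129/B6 (adjusted p = 0.248 for G2 and 0.821 for G5, edgeR's quasi-likelihood test). Klf4 had 26.5 and 24.9 FPKM in G2 and 20.7 and 20.5 FPKM in G5. These values lay between 57.6 FPKM in 129/B6 WT iPSC and 9.51 and 10.2 FPKM in c57/b6 WT iPSC. The direction of Klf4 thus depended on which WT iPSC were compared. Myc had 6.95 to 11 FPKM in the 4 Nanog-null samples, against 6.85 FPKM in 129/B6 WT iPSC and 2.69 and 2.11 FPKM in c57/b6 WT iPSC.

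Among kept-higher genes with the largest changes, a cluster of serine protease inhibitor genes on chromosome 13 stood out by number, 5 of the 15 named (Serpinb9c, Serpinb9d, Serpinb9e, Serpinb9f and Serpinb9g). Serpinb9 itself inhibits granzyme B, and several of its mouse paralogs are known from placenta. Serpinb9e (ENSMUSG00000062342) had 20.8 and 24.4 FPKM in G2 and 38.4 and 33.8 FPKM in G5, against 0.0181 FPKM in 129/B6 WT iPSC and 0.107 and 0.0470 FPKM in c57/b6 WT iPSC. Both clones were far above all 3 WT samples, with G5 above G2. Its log2 change was 10.10 and 10.76 for G2 and G5 against 129/B6, and 8.43 and 9.09 against c57/b6. Serpinb9d had 6.51 to 13.4 FPKM in the 4 Nanog-null samples, against 0.0293 FPKM in 129/B6 WT iPSC and 0 FPKM in both c57/b6 samples. All 7 members of the family tested, including Serpinb9 and Serpinb9b, were kept higher and were also higher in Nanog-null ESC than in 129/B6 WT ESC. Of all genes, 18.4% were kept higher and 34.6% were higher in Nanog-null ESC. The family was picked after its values were seen. Serpinb9b, with 22.5 to 37.1 FPKM in Nanog-null iPSC, was at 1.29 FPKM in 129/B6 WT iPSC and at 1.61 and 1.69 FPKM in c57/b6 WT iPSC, and Serpinb9 was at 2.81 to 3.32 FPKM in Nanog-null iPSC and 0.712 to 1.04 FPKM in WT iPSC. These genes resemble each other closely, so how the fragments divide among Serpinb9c to Serpinb9g is uncertain.

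Because these neighbours were high together, 3 of their promoters are shown, Serpinb9c (chr13:33159705-33160004, minus strand), Serpinb9d (chr13:33192705-33193004, plus strand) and Serpinb9e (chr13:33249358-33249657, plus strand), each from RefSeq, GRCm38.p6, 250 bases before to 50 after the start. The capitals mark TGACGT, the cAMP response element half-site, searched on both strands and chosen after the windows were read.
Serpinb9c: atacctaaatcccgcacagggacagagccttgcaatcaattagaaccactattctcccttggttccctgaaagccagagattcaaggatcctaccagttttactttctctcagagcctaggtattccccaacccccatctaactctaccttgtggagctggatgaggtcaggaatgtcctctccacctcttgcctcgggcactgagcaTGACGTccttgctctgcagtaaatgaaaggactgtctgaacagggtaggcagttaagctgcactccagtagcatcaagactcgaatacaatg
Serpinb9d: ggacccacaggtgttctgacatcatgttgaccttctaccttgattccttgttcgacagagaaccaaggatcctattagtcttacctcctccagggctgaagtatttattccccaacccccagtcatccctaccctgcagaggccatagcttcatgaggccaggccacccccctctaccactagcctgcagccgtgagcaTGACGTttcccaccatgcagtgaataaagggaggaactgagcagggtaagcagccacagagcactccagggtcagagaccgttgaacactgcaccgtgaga
Serpinb9e: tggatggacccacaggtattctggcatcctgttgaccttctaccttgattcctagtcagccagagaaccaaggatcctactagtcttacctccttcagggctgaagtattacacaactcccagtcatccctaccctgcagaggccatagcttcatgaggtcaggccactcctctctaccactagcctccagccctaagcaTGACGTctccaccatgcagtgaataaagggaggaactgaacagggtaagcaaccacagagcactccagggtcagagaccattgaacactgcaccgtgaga
The match begins 42 bases before the start in Serpinb9c, 51 in Serpinb9d, 50 in Serpinb9e, 65 in Serpinb9f and 54 in Serpinb9g, and 5 of the 6 windows from Serpinb9b to Serpinb9g hold it. It is present in 7.64% of all 27025 promoter windows, in 10.7% of the 2054 kept-higher windows and in 11.2% of the 1586 kept-lower windows. The Serpinb9e and Serpinb9f windows are 99.3% identical over 285 aligned bases, Serpinb9d and Serpinb9e 92.9%, and Serpinb9c shares 74.3 to 76.6% with Serpinb9d to Serpinb9g. Serpinb9b, whose window does not hold these letters, shares 73.6 to 78.5% with the others over 135 to 163 aligned bases. A GATA-type motif, AGATAA, was in 11.4% of all windows, 6.33% of kept-higher windows and none of the 6.

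The other named kept-higher genes encode transporters, junction proteins, RNA-binding proteins and transcripts of unannotated function. Slc22a3, an organic cation transporter active in placenta, had 21.5 and 21.6 FPKM in G2 and 23.7 and 20.2 FPKM in G5, against 0.0189 FPKM in 129/B6 WT iPSC and 0.0281 and 0.0615 FPKM in c57/b6 WT iPSC. The 4 Nanog-null samples lay close together and far above all WT samples, and Nanog-null ESC averaged 10.8 FPKM against 0.00615 FPKM in 129/B6 WT ESC. The Slc22a3 log2 change was 10.08 ± 0.37 (SE) for each clone against 129/B6, and 8.74 ± 0.27 for G2 and 8.75 ± 0.27 for G5 against c57/b6. Dppa1, a developmental pluripotency associated gene, had 10.7 and 10.1 FPKM in G2 and 9.04 and 6.49 FPKM in G5 and was at 0 FPKM in all 3 WT iPSC samples. It was at least 59.8-fold higher than in 129/B6 and at least 68.0-fold higher than in c57/b6 WT iPSC, taking 3 counts over each WT group as the limit. Gjb2, the gap junction protein connexin 26, had 53.8 to 83.4 FPKM in Nanog-null iPSC, against 0.212 FPKM in 129/B6 WT iPSC and 0.0418 and 0.257 FPKM in c57/b6 WT iPSC, and it averaged 91.4 FPKM in MEF. Zfp36l3, an RNA-binding protein of the mouse placenta, had 36.1 to 44.2 FPKM in Nanog-null iPSC, 0.276 FPKM in 129/B6 WT iPSC and at most 0.0840 FPKM in c57/b6 WT iPSC. Slc13a4, a sulfate transporter, had 26.7 to 33.2 FPKM in Nanog-null iPSC, 0.243 FPKM in 129/B6 WT iPSC and at most 0.371 FPKM in c57/b6 WT iPSC. Epn3, an endocytic adaptor of the epsin family, had 10.1 to 11.7 FPKM, against 0.103 FPKM in 129/B6 and at most 0.126 FPKM in c57/b6 WT iPSC. Gbp1 and 4932442L08Rik were likewise above all WT samples, and the others (Rps13-ps1 and Gm12666) are multi-copy transcripts treated in the closing section.

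**Figure D2:**
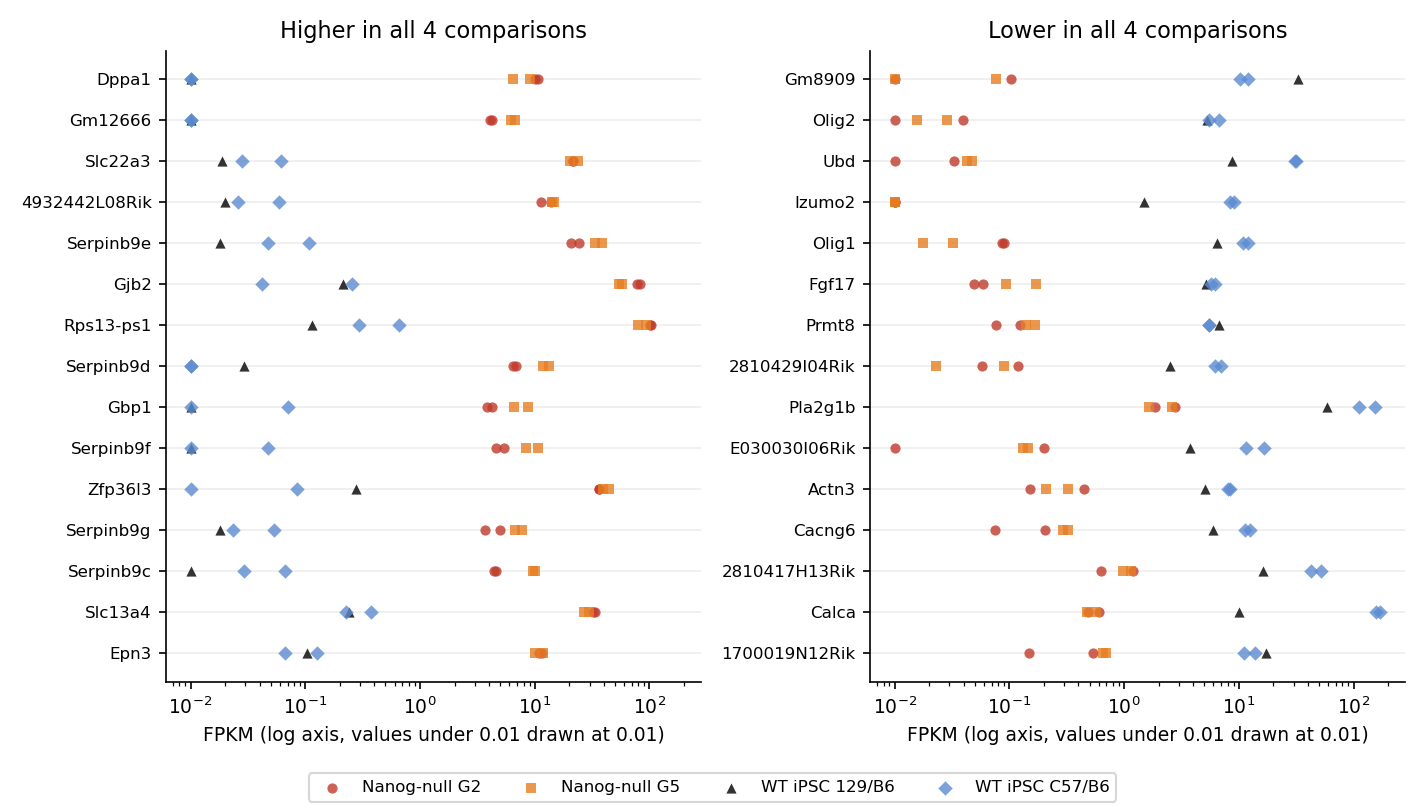
FPKM on a log axis for the 15 kept-higher genes (left panel) and 15 kept-lower genes (right panel) with the largest smallest change over the 4 comparisons, each point 1 sample and values under 0.01 drawn at 0.01. The 4 Nanog-null iPSC samples lie apart from the 3 WT iPSC samples for every gene shown, a separation that the choice of genes fixes.

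The named kept-lower genes included neural and immune genes with almost no signal in the Nanog-null iPSC. Olig2, a basic helix-loop-helix factor of the oligodendrocyte and motor neuron lineages, had 0 and 0.0397 FPKM in G2 and 0.0286 and 0.0157 FPKM in G5, against 5.33 FPKM in 129/B6 WT iPSC and 5.48 and 6.75 FPKM in c57/b6 WT iPSC. All 3 WT samples were similar to each other and above every Nanog-null sample, with log2 changes between -8.50 and -7.75. Its neighbour in the genome, Olig1, had 0.0178 to 0.0900 FPKM in Nanog-null iPSC, 6.42 FPKM in 129/B6 WT iPSC and 10.9 and 11.9 FPKM in c57/b6 WT iPSC. Nanog-null ESC averaged 0.00883 FPKM of Olig2, against 4.23 FPKM in 129/B6 WT ESC.

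Ubd, a ubiquitin-like modifier induced by cytokines, had at most 0.0473 FPKM in Nanog-null iPSC, against 8.70 FPKM in 129/B6 WT iPSC and 31.5 and 31.0 FPKM in c57/b6 WT iPSC. Gm8909 (ENSMUSG00000092478) had at most 0.104 FPKM in Nanog-null iPSC, 32.6 FPKM in 129/B6 WT iPSC and 11.9 and 10.1 FPKM in c57/b6 WT iPSC. The annotation holds a second gene of the same symbol, so its fragments are uncertain. Izumo2, a paralog of a sperm-egg fusion protein gene, was at 0 FPKM in all 4 Nanog-null samples, against 1.48 FPKM in 129/B6 WT iPSC and 8.39 and 9.11 FPKM in c57/b6 WT iPSC, which is at least 29.1-fold lower than in 129/B6 with 3 counts over the Nanog-null group as the limit. Calca, the calcitonin and CGRP gene, had 0.479 to 0.609 FPKM in Nanog-null iPSC, 10.1 FPKM in 129/B6 WT iPSC and 172 and 157 FPKM in c57/b6 WT iPSC. Its direction was shared while its size differed with the WT iPSC compared. The log2 change was -4.21 for G2 and -4.20 for G5 against 129/B6, and -8.25 and -8.23 against c57/b6. Prmt8, a protein arginine methyltransferase, had 0.0772 to 0.167 FPKM in Nanog-null iPSC and 5.45 to 6.71 FPKM in WT iPSC. Pla2g1b, a secreted phospholipase, had 1.64 to 2.75 FPKM in Nanog-null iPSC, 58.7 FPKM in 129/B6 WT iPSC and 153 and 111 FPKM in c57/b6 WT iPSC. Unlike the others given here, Pla2g1b did not pass the test in ESC, where Nanog-null ESC averaged 8.79 FPKM and 129/B6 WT ESC 8.59 FPKM (adjusted p = 0.761, edgeR's quasi-likelihood test). Cacng6, a calcium channel gamma subunit gene, had 0.0746 to 0.323 FPKM in Nanog-null iPSC, 5.94 FPKM in 129/B6 WT iPSC and 11.4 and 12.5 FPKM in c57/b6 WT iPSC. The other named kept-lower genes were Fgf17, given with the signalling genes, Actn3, 2810429I04Rik, 2810417H13Rik, E030030I06Rik and 1700019N12Rik.

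The samples outside the rule were the ESC of set AC, which share no library with the iPSC comparisons. However, Nanog-null ESC and iPSC are the same line by descent, and all libraries were fitted in the same model. The Nanog-null ESC were at passage 6 and the WT ESC at passage 10 to 15, so genotype and passage cannot be told apart between them. Nanog-null ESC were called higher than 129/B6 WT ESC in 34.6% of the 16059 genes and lower in 32.8% (67.4% in all). Of the 2957 kept-higher genes, 2463 (83.3%) were higher in Nanog-null ESC and 97 were lower. Of the 2267 kept-lower genes, 1853 (81.7%) were lower and 68 were higher. Among genes kept at 4-fold or more in all 4 comparisons, 511 of the 559 kept-higher (3.48% of all genes) and 211 of the 243 kept-lower (1.51%) moved the same way in ESC. At 16-fold or more, 105 of 117 kept-higher (0.729%) and 37 of 40 kept-lower genes (0.249%) did.

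Genes were sorted next by lineage, and lists were chosen with earlier results of these data known, so their counts are descriptions set beside the 18.4% kept higher and 14.1% kept lower over all genes. In a bulk sample, fewer cells of a type and less RNA per cell cannot be told apart.

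Primitive endoderm genes were the list with the most members kept higher in number after the fibroblast list, 17 of 25 tested and none lower, and all 17 were also higher in Nanog-null ESC. The median log2 change of the list was 3.12 for G2 and 2.61 for G5 against 129/B6, and 2.23 and 1.92 against c57/b6. Gata6, the factor that directs cells of the inner cell mass to primitive endoderm, had 20.6 and 19.5 FPKM in G2 and 14.8 and 15.1 FPKM in G5, against 0.240 FPKM in 129/B6 WT iPSC and 0.587 and 0.773 FPKM in c57/b6 WT iPSC. No Nanog-null sample was near a WT sample, and the log2 change was 6.40 and 5.96 for G2 and G5 against 129/B6, and 4.88 and 4.44 against c57/b6. Gata4, its partner in that lineage, had 17.9 and 15.3 FPKM in G2 and 15.8 and 12.5 FPKM in G5, against 0.721 FPKM in 129/B6 WT iPSC and 1.80 and 2.02 FPKM in c57/b6 WT iPSC. Sox17, a later factor of the same lineage, had 8.20 to 12.9 FPKM in Nanog-null iPSC and 0.400 to 0.706 FPKM in WT iPSC.

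Receptor and matrix genes of primitive endoderm moved in the same direction. Pdgfra, the receptor by which the lineage is often recognised, had 13.1 and 11.5 FPKM in G2 and 8.66 and 8.24 FPKM in G5, against 0.835 FPKM in 129/B6 WT iPSC and 2.65 and 2.1 FPKM in c57/b6 WT iPSC. Lama1, a laminin chain of the basement membrane the lineage deposits, had 44.3 and 39.1 FPKM in G2 and 41.3 and 41.0 FPKM in G5, against 2.07 FPKM in 129/B6 WT iPSC and 1.45 and 1.59 FPKM in c57/b6 WT iPSC. Its log2 change was between 4.33 and 4.84 in the 4 comparisons. Col4a1, a type IV collagen chain, had 110 to 125 FPKM in Nanog-null iPSC, 11.5 FPKM in 129/B6 WT iPSC and 4.09 and 5.68 FPKM in c57/b6 WT iPSC. Foxa2, Sox7 and Lamb1 were kept higher too, whereas the visceral endoderm genes Afp, Ttr and Amn were not kept. Cubn, an endocytic receptor, was called higher in all 4 comparisons from fragment counts, but its FPKM against c57/b6 ran the other way, with 3.01 to 4.31 FPKM in Nanog-null iPSC and 5.85 and 5.07 FPKM in c57/b6 WT iPSC. Such a disagreement of direction was found in 52 of the 5224 kept genes (0.995%).

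Trophoblast genes gave a like count, 14 of 18 tested kept higher, none lower, and all 14 higher in Nanog-null ESC, with list medians of 3.13 and 2.83 (log2) against 129/B6 and 1.92 and 2.14 against c57/b6 for G2 and G5. Gata2, a factor of trophoblast and blood, had 33.7 and 32.6 FPKM in G2 and 29.5 and 25.7 FPKM in G5, against 0.349 FPKM in 129/B6 WT iPSC and 0.379 and 0.291 FPKM in c57/b6 WT iPSC. The WT samples of both strains were alike, and the log2 change was between 6.31 and 6.81. Plac1, a placental gene, had 14.1 and 15.3 FPKM in G2 and 21.7 and 21.1 FPKM in G5, against 0.220 FPKM in 129/B6 WT iPSC and 0.127 and 0.240 FPKM in c57/b6 WT iPSC. Cdx2, the factor that opens the trophectoderm programme, reached 4.48 and 4.29 FPKM in G2 and 3.66 and 2.60 FPKM in G5, against 1.09 FPKM in 129/B6 WT iPSC and 0 and 0.0196 FPKM in c57/b6 WT iPSC.

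The trophoblast list was not uniform. Gata3 stayed low in absolute terms, at 1.88 to 3.22 FPKM in Nanog-null iPSC and 0.199 to 0.311 FPKM in WT iPSC. The simple-epithelial keratin gene Krt8 had 378 and 348 FPKM in G2 and 813 and 711 FPKM in G5, against 2.30 FPKM in 129/B6 WT iPSC and 98.4 and 106 FPKM in c57/b6 WT iPSC. G5 exceeded G2, and the c57/b6 samples exceeded the 129/B6 sample. Krt18, the partner of Krt8 in filaments, had 351 and 340 FPKM in G2 and 751 and 700 FPKM in G5, against 1.90 FPKM in 129/B6 WT iPSC and 271 and 263 FPKM in c57/b6 WT iPSC. Bmp4, a ligand of the TGF-beta superfamily that supports extraembryonic fates, had 9.67 to 10.5 FPKM in Nanog-null iPSC, 0.777 FPKM in 129/B6 WT iPSC and 2.04 and 1.55 FPKM in c57/b6 WT iPSC. Tfap2c and Eomes were not kept, and Elf5 did not pass the filter on low counts. The 5 trophoblast markers (Cdx2, Gata3, Elf5, Tfap2c and Hand1) summed to 23.0 to 29.1 FPKM in Nanog-null iPSC and 13.8 to 15.8 FPKM in WT iPSC. Their sum was 31.8 and 32.3 FPKM in 129/B6 WT ESC, above the Nanog-null iPSC, and 48.6 and 43.5 FPKM in Nanog-null ESC. Of the 5, 4 were under 1 FPKM in each 129/B6 WT ESC sample, against at most 1 in Nanog-null iPSC.

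**Figure D3:**
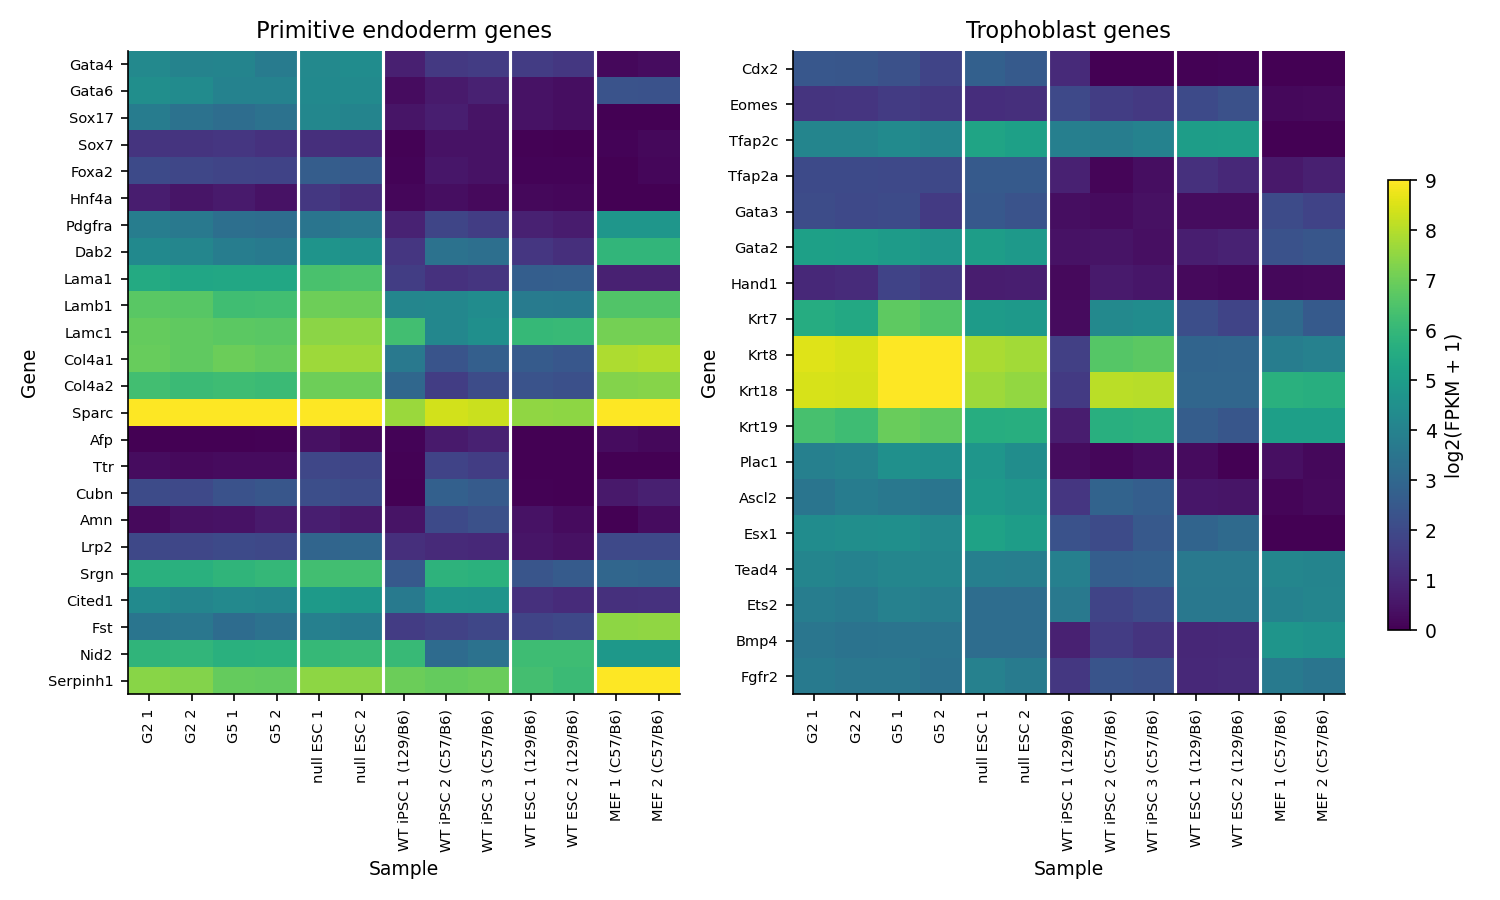
Heat map of log2(FPKM + 1) for primitive endoderm and trophoblast genes (rows) in single samples (columns), in the order G2, G5, Nanog-null ESC, WT iPSC, 129/B6 WT ESC and MEF, with the colour capped at 9. Gata6, Gata4, Lama1, Gata2 and Plac1 are brighter in all 6 Nanog-null columns than in the WT stem cell columns.

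Fibroblast genes moved with these lists, in cultures kept on feeder cells. Of 34 tested, 20 were kept higher and none lower. The summed FPKM of 14 fibroblast markers was 18.1 and 19.13% of the MEF mean in G2 and 8.0 and 8.01% in G5, against 3.98% in 129/B6 WT iPSC and 1.47 and 1.55% in c57/b6 WT iPSC, and it was 12.5 and 12.4% in Nanog-null ESC against 2.75 and 2.59% in 129/B6 WT ESC. None of the 14 markers was at 0 in the 7 iPSC samples. Col1a1, the main fibrillar collagen gene, had 278 and 303 FPKM in G2 and 107 and 114 FPKM in G5, against 63.0 FPKM in 129/B6 WT iPSC and 6.38 and 8.44 FPKM in c57/b6 WT iPSC, with 1239 FPKM in MEF. The part of fibroblast RNA in the results above was not tested. Some endoderm and trophoblast genes were read in MEF directly. MEF samples averaged 0.186 FPKM of Gata4, 0 FPKM of Sox17, 0.778 FPKM of Lama1 and 0.215 FPKM of Plac1, all below the Nanog-null iPSC. Col4a1 averaged 245 FPKM and Pdgfra 25.5 FPKM in MEF, above the Nanog-null iPSC. Gata6 averaged 3.89 FPKM and Gata2 4.08 FPKM in MEF, below the Nanog-null iPSC. Of the 17 kept-higher primitive endoderm genes, 9 averaged less in MEF than in Nanog-null iPSC, as did 12 of the 14 kept-higher trophoblast genes. The 7 primitive endoderm markers summed to 88.6 and 89.9 FPKM in MEF. Their sum was 87.3 and 76.6 FPKM in G2 and 64.9 and 61.4 FPKM in G5. It was 4.01 FPKM in 129/B6 WT iPSC and 16.2 and 14.9 FPKM in c57/b6 WT iPSC. Of the 117 kept-higher genes with changes of 16-fold or more, 96 averaged under 1 FPKM in MEF (82.1%). The share was alike for kept-lower genes of that size (35 of 40, 87.5%) and was 25.3% over all 2957 kept-higher genes. Macrophage marker sums (4 genes) were 4.81 to 6.35 FPKM in Nanog-null iPSC, 2.70 FPKM in 129/B6 WT iPSC and 16.6 and 17.1 FPKM in c57/b6 WT iPSC.

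Pluripotency genes outside the factors themselves were lower in part. In the general pluripotency list, 7 of 21 tested genes were kept lower and 2 were kept higher, and all 7 were lower in Nanog-null ESC. Fgf4, the epiblast ligand that signals to primitive endoderm precursors, had 7.50 and 7.89 FPKM in G2 and 9.03 and 10.1 FPKM in G5, against 75.9 FPKM in 129/B6 WT iPSC and 93.0 and 97.7 FPKM in c57/b6 WT iPSC. The Nanog-null samples were all far below the WT samples, with log2 changes between -3.56 and -2.98, and Nanog-null ESC averaged 5.60 FPKM against 81 FPKM in 129/B6 WT ESC. Mycn, a Myc-family factor of stem cell growth, had 2.88 to 4.11 FPKM in Nanog-null iPSC and 21.1 to 27.1 FPKM in WT iPSC. Tdgf1, the Nodal co-receptor, had 126 to 240 FPKM in Nanog-null iPSC, 377 FPKM in 129/B6 WT iPSC and 1155 and 1069 FPKM in c57/b6 WT iPSC. Zfp42 (Rex1), a common marker of naive cells, went the other way in iPSC, with 112 to 135 FPKM in Nanog-null iPSC and 54.5 to 58.6 FPKM in WT iPSC. In ESC, Zfp42 was lower in the Nanog-null line, at 143 FPKM against 224 FPKM in 129/B6 WT ESC.

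In the list of the naive network around Nanog, 6 of 21 tested genes were kept lower, all 6 lower in Nanog-null ESC as well. A single gene, Zfp42, was kept higher. Esrrb, a further member of this list, was not tested because the authors' status for it was not OK. Prdm14, a repressor of FGF signalling and DNA methylation genes, had 4.02 to 4.87 FPKM in Nanog-null iPSC, against 29.4 FPKM in 129/B6 WT iPSC and 6.40 and 6.56 FPKM in c57/b6 WT iPSC, so the gap was wide against one strain and narrow against the other. Pecam1, a surface protein of naive stem cells, had 10.2 to 11.5 FPKM in Nanog-null iPSC, 48.9 FPKM in 129/B6 WT iPSC and 40.0 and 36.9 FPKM in c57/b6 WT iPSC. Dnmt3b, a de novo DNA methyltransferase of the DNA methylation list, was kept higher, with 34.7 to 41.0 FPKM in Nanog-null iPSC, 19.4 FPKM in 129/B6 WT iPSC and 12 and 12.6 FPKM in c57/b6 WT iPSC. The median of the naive list changed sign with the WT iPSC compared. It was -0.67 and -0.59 (log2) for G2 and G5 against 129/B6 and 1.07 and 1.09 against c57/b6.

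Signalling genes were kept in both directions. Among FGF ligands, Fgf17, an ERK-pathway ligand, had 0.0489 to 0.172 FPKM in Nanog-null iPSC, 5.19 FPKM in 129/B6 WT iPSC and 6.16 and 5.72 FPKM in c57/b6 WT iPSC. The receptor gene Fgfr2, which trophoblast and primitive endoderm express, was higher, at 9.42 to 11.6 FPKM in Nanog-null iPSC, 1.78 FPKM in 129/B6 WT iPSC and 4.01 and 3.74 FPKM in c57/b6 WT iPSC. Over the FGF-ERK list, 5 of 24 tested genes were kept higher, 3 of them also without G5 replicate 1, and 3 were kept lower. Of 17 genes of the Nodal pathway, 4 were kept lower and 3 higher, and Lefty1, a Nodal inhibitor and target, had 12.9 to 23.9 FPKM in Nanog-null iPSC, 55.3 FPKM in 129/B6 WT iPSC and 109 and 113 FPKM in c57/b6 WT iPSC. Of 23 Wnt pathway genes, 7 were kept higher and 2 lower. Dkk1, a secreted Wnt inhibitor, had 11.6 and 11.8 FPKM in G2 and 8.19 and 8.47 FPKM in G5, against 0.349 FPKM in 129/B6 WT iPSC and 0.455 and 0.491 FPKM in c57/b6 WT iPSC. In the LIF and Stat3 list, 4 of 16 were kept higher, among them Stat3 at 24 to 29.2 FPKM in Nanog-null iPSC, 15.2 FPKM in 129/B6 WT iPSC and 9.01 and 9.03 FPKM in c57/b6 WT iPSC, and the Stat3 target Pim1 was kept lower at 10.7 to 12.4 FPKM in Nanog-null iPSC and 36.4 to 67.2 FPKM in WT iPSC. Of 15 BMP and Id genes, 2 were kept higher and 3 lower.

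Enzymes of serine, glycine and folate metabolism, which feed the one-carbon pool that mouse stem cells draw on heavily, formed the list with the most kept-lower members. Of 18 tested, 12 were kept lower and none higher, and 10 of the 12 were lower in Nanog-null ESC. The list medians were -0.98 and -1.11 (log2) for G2 and G5 against 129/B6, and -0.60 and -0.70 against c57/b6. Phgdh, the first enzyme of serine synthesis, had 27.5 and 25.9 FPKM in G2 and 31.9 and 34.9 FPKM in G5, against 126 FPKM in 129/B6 WT iPSC and 166 and 163 FPKM in c57/b6 WT iPSC. All 4 Nanog-null samples were below the WT samples, with log2 changes of -2.21 and -1.91 for G2 and G5 against 129/B6 and -2.56 and -2.25 against c57/b6. Psat1, the next enzyme of that pathway, had 41.5 to 54.4 FPKM in Nanog-null iPSC and 171 to 184 FPKM in WT iPSC. Ahcy, which clears S-adenosylhomocysteine after methyl transfer, had 40.7 to 50.2 FPKM in Nanog-null iPSC and 113 to 124 FPKM in WT iPSC. Mthfd2, a mitochondrial folate enzyme, had 15.0 to 21.8 FPKM in Nanog-null iPSC, 66.1 FPKM in 129/B6 WT iPSC and 52.6 and 50.1 FPKM in c57/b6 WT iPSC.

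Glycolysis and hypoxia genes were kept lower in 9 of 20 tested, all 9 lower in Nanog-null ESC, and 2 were kept higher. The size of the changes depended on which WT iPSC were compared, and the part of strain, passage or library set was not tested. With limma on FPKM at either pseudocount, 5 of the 9 kept the call. Ldha, lactate dehydrogenase A, had 181 and 187 FPKM in G2 and 219 and 223 FPKM in G5, against 424 FPKM in 129/B6 WT iPSC and 2932 and 2768 FPKM in c57/b6 WT iPSC. The c57/b6 samples were several times above the 129/B6 sample, which was itself above all Nanog-null samples. Slc2a3, a glucose transporter, was nearly the same in both WT strains, at 91.4 to 111 FPKM in Nanog-null iPSC, 359 FPKM in 129/B6 WT iPSC and 322 and 299 FPKM in c57/b6 WT iPSC.

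**Figure D4:**
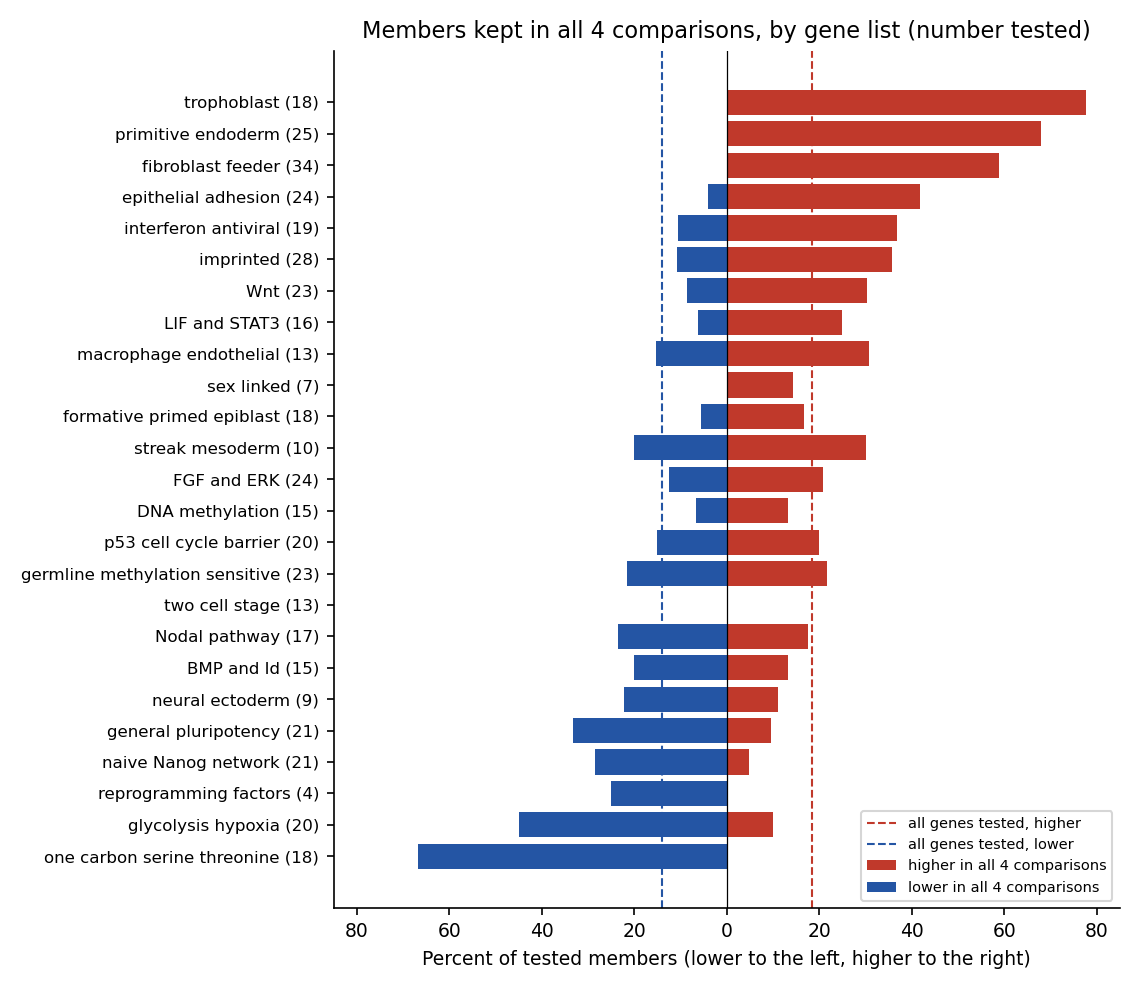
Percent of tested genes kept higher and kept lower in each of the gene lists, with dashed lines at 18.4% (higher) and 14.1% (lower) for all genes tested. Primitive endoderm, trophoblast and fibroblast lists lie to the higher side with no gene kept lower, and the one-carbon list to the lower side with no gene kept higher.

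Imprinted, germline and interferon lists held changes of both signs. Of 28 imprinted genes tested, 10 were kept higher and 3 lower. H19, a non-coding RNA of the Igf2 locus, had 2202 and 1888 FPKM in G2 and 2134 and 1854 FPKM in G5, against 71.2 FPKM in 129/B6 WT iPSC and 829 and 778 FPKM in c57/b6 WT iPSC. H19 also averaged 1567 FPKM in MEF. Impact, a regulator of translation under stress, had 132 to 136 FPKM in Nanog-null iPSC, 23.9 FPKM in 129/B6 WT iPSC and 31.6 and 33.4 FPKM in c57/b6 WT iPSC, with little spread in either group. Of 23 germline genes, 5 were kept in each direction. Hormad1, a meiotic chromosome protein gene, had 3.64 to 5.54 FPKM in Nanog-null iPSC and 43.6 to 46.9 FPKM in WT iPSC. Rhox6, a reproductive homeobox gene of the X chromosome also active in placenta, had 106 and 104 FPKM in G2 and 206 and 177 FPKM in G5, against 1.44 FPKM in 129/B6 WT iPSC and 25.8 and 27.0 FPKM in c57/b6 WT iPSC. Of 19 interferon and antiviral genes, 7 were kept higher, 4 of them also with a replicate block, and 2 were kept lower. H2-D1, a classical MHC class I gene, had 46.7 to 62.6 FPKM in Nanog-null iPSC and 13.1 to 16.7 FPKM in WT iPSC. Ifitm1, an interferon-induced membrane protein gene, was lower, at 10.6 to 21.3 FPKM in Nanog-null iPSC, 48.5 FPKM in 129/B6 WT iPSC and 747 and 689 FPKM in c57/b6 WT iPSC.

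The counts of the lists not described above stand beside 18.4% of all genes kept higher and 14.1% kept lower. Of 24 epithelial adhesion genes, 10 were kept higher and 1 lower. Counts were 3 higher and 1 lower of 18 formative or primed epiblast genes, 3 and 2 of 10 streak and mesoderm genes, 1 and 2 of 9 neural genes, 2 and 1 of 15 DNA methylation genes and 4 and 3 of 20 p53 and cell-cycle genes. They were 4 and 2 of 13 macrophage and endothelial genes and 1 and 0 of 7 sex-linked genes.

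Between the clones, G2 and G5 differed in 2279 of 16059 genes (14.2%), a count that ran from 635 with at least 2-fold required to 4924 in a fit of the 7 iPSC libraries, and was 1173 to 1208 when any 1 of the 4 clone libraries was left out. In the fit of all libraries the clones differed in 669 of 2957 kept-higher genes (22.6%) and 205 of 2267 kept-lower genes (9.04%). Krt8 was lower in G2 than in G5 (log2 change -1.05, adjusted p = 1.78e-05, edgeR's quasi-likelihood test), as were Rhox6 (-0.85, adjusted p = 0.00215) and the cell-cycle inhibitor gene Cdkn1c (-1.27, adjusted p = 7.61e-06). Col3a1, a fibrillar collagen gene, was higher in G2 (1.72, adjusted p = 4.72e-08), and of the 34 fibroblast genes tested 22 differed between the clones, 21 of them higher in G2. Gata6 did not pass the test between clones (0.44, adjusted p = 0.077).

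Genes that moved against 1 strain only were defined as called for both clones against that strain, not called that way for either clone against the other strain, and called between the WT iPSC strains. They numbered 2720 against 129/B6 only (16.9%), of which 1085 were higher (6.76%) and 1635 lower (10.2%), and 5287 against c57/b6 only (32.9%), of which 2851 were higher (17.8%) and 2436 lower (15.2%). Within both numbers are 1544 genes called in opposite directions against the strains. In ESC, 54.2% of the 129/B6-only higher genes and 54.7% of the lower genes were called the same way, as were 27.6% and 35.2% for the c57/b6-only genes, against 34.6% higher and 32.8% lower over all genes.

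The genes with the largest 129/B6-only changes were high or low in the single 129/B6 WT iPSC sample and rest on it. Chit1, a chitin-degrading enzyme of macrophages, had 0.208 to 0.472 FPKM in Nanog-null iPSC, 46.1 FPKM in 129/B6 WT iPSC and 0.511 and 0.190 FPKM in c57/b6 WT iPSC. Aqp9, a channel for water and glycerol, had 0.0995 to 0.300 FPKM in Nanog-null iPSC, 15.1 FPKM in 129/B6 WT iPSC and 0.120 and 0.0266 FPKM in c57/b6 WT iPSC. Prrt3 had 0.231 to 0.399 FPKM in Nanog-null iPSC, 22.8 FPKM in 129/B6 WT iPSC and 0.342 and 0.335 FPKM in c57/b6 WT iPSC. For Chit1 and Prrt3 the ranges of the Nanog-null and c57/b6 samples overlapped. Aqp9 was called higher in G2 than in c57/b6 (log2 change 1.72, adjusted p = 0.0314, edgeR's quasi-likelihood test) and not in G5 (adjusted p = 0.0535). Gm20418 was the largest in the other direction, at 4.17 to 5.97 FPKM in Nanog-null iPSC. It had 0.0575 FPKM in 129/B6 WT iPSC and 7.95 and 4.22 FPKM in c57/b6 WT iPSC. It was close to the threshold (adjusted p = 0.0392 for G2 and 0.0442 for G5, edgeR's quasi-likelihood test). Gm20418 also varied within groups, with 0.299 and 5.69 FPKM in Nanog-null ESC and 0.0550 and 4.26 FPKM in MEF. The single low 129/B6 WT iPSC value therefore cannot be told from such variation.

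Of the 21 genes of the naive network list, 10 were called in both clones against 129/B6 only (1 higher, 9 lower) and 11 against c57/b6 only (10 higher, 1 lower), beside 16.9% and 32.9% of all genes. Genes called in opposite directions against the strains are in both counts. Klf5, a Krüppel-like factor of naive cells, had 42.9 and 36.5 FPKM in G2 and 32.3 and 30.7 FPKM in G5, against 43.2 FPKM in 129/B6 WT iPSC and 3.67 and 3.13 FPKM in c57/b6 WT iPSC. It was higher than in c57/b6 (log2 change 3.64 for G2 and 3.29 for G5) and did not pass the test against 129/B6 (adjusted p = 0.71 for G2 and 0.0683 for G5, edgeR's quasi-likelihood test). Tfcp2l1, another naive factor, had 71.0 to 73.8 FPKM in Nanog-null iPSC, 93.2 FPKM in 129/B6 WT iPSC and 6.70 and 7.33 FPKM in c57/b6 WT iPSC. Klf2 and Tbx3 were called in opposite directions. Klf2, a naive factor whose protein is kept stable when Mek is inhibited, had 55.6 to 72.0 FPKM in Nanog-null iPSC, below 109 FPKM in 129/B6 WT iPSC and above 16.5 and 18.2 FPKM in c57/b6 WT iPSC. Otx2, a factor of the primed epiblast and not of that list, had 1.22 to 1.48 FPKM in Nanog-null iPSC, above 0.544 FPKM in 129/B6 WT iPSC and below 18.2 and 15.1 FPKM in c57/b6 WT iPSC.

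Genes of the 2-cell stage depended most fully on which WT iPSC were compared, with 0 of 13 tested kept in either direction. Strain, passage and library set cannot be told apart in this dependence. Of these, 12 were higher against c57/b6 only and 9 lower against 129/B6 only, genes called in opposite directions being in both counts. Zscan4f, a telomere-regulating factor expressed in a small share of stem cells, had 21.0 and 24.4 FPKM in G2 and 44.1 and 50.4 FPKM in G5, against 136 FPKM in 129/B6 WT iPSC and 0 and 0.0990 FPKM in c57/b6 WT iPSC. The Nanog-null samples lay between the 129/B6 and c57/b6 WT iPSC samples. The log2 changes of Zscan4f were -2.78 and -1.65 for G2 and G5 against 129/B6, and 7.72 and 8.85 against c57/b6. The 129/B6 side of these comparisons is 1 sample. In 129/B6 WT ESC, Zscan4f had 19.4 and 17.9 FPKM, below every Nanog-null iPSC sample. Zscan4e had 10.3 to 17.8 FPKM in Nanog-null iPSC, 86.7 FPKM in 129/B6 WT iPSC and at most 0.0783 FPKM in c57/b6 WT iPSC. It had 5.34 and 5.41 FPKM in 129/B6 WT ESC. The list medians were -2.34 and -1.44 against 129/B6, and 6.70 and 7.53 against c57/b6. The Zscan4 genes are near-identical copies, so the division of fragments among them is uncertain. Tdpoz3 had 4.30 to 6.14 FPKM in Nanog-null iPSC, 5.4 FPKM in 129/B6 WT iPSC and 0 FPKM in both c57/b6 WT iPSC samples, and was at least 56.8-fold higher than in c57/b6, with 3 counts over that group as the limit. Hist1h2af, a histone H2A gene, had 0 FPKM in both G2 samples and 0.149 and 0.328 FPKM in G5, against 0.143 FPKM in 129/B6 WT iPSC and 24.3 and 36.0 FPKM in c57/b6 WT iPSC.

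**Figure D5:**
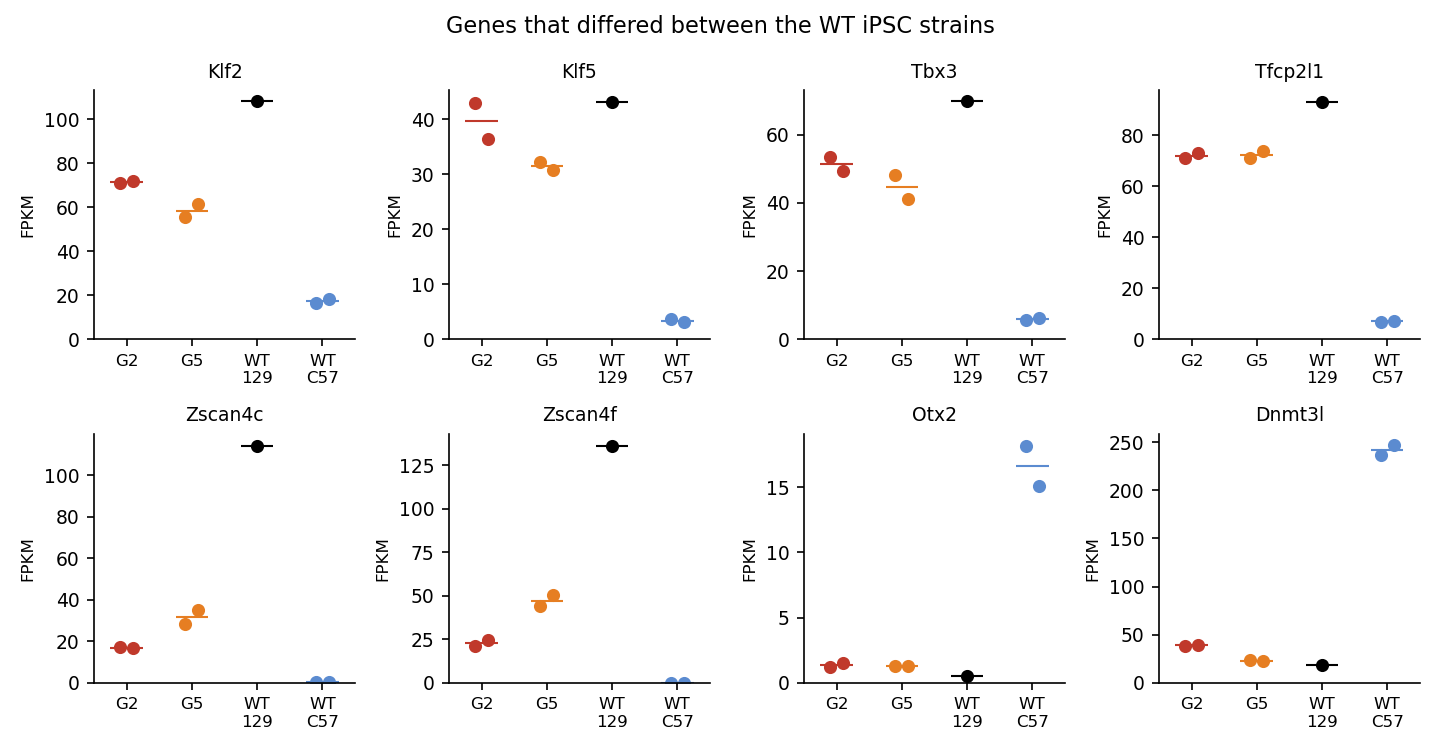
FPKM per sample for Klf2, Klf5, Tbx3, Tfcp2l1, Zscan4c, Zscan4f, Otx2 and Dnmt3l, with a line at the mean of each group. The groups are G2, G5, 129/B6 WT iPSC and c57/b6 WT iPSC. For Klf5 and Tfcp2l1 the Nanog-null samples lie near the 129/B6 sample and far from the c57/b6 samples. For Zscan4f the Nanog-null samples lie between the 129/B6 and c57/b6 WT iPSC samples.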

How the data were processed

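RNA was sequenced from 17 libraries. Per the submitters' processing notes, the tools were Cuffdiff 2.1.1, Bowtie2 2.0.5, TopHat2 2.0.7 and CASAVA, and the builds mm10 and NCBIM37 are named, with roles not given in the sources used here. Per the file headers, the deposited tables give for 28670 genes estimated counts of fragments (97.5 to 98.8% of values whole), a scaled count signal and FPKM, all as the authors computed them. The estimated counts were rounded and tested, and FPKM are printed as levels. The log2 change of counts and that of mean FPKM differed by more than 1 for 0.249 to 1.91% of genes over the 4 comparisons. For 19 genes the authors' status was not OK, and these were left out. Genes with at least 1 CPM (a count scaled to library size) in 2 of 17 libraries were kept (16059). edgeR 4.0.16 (R 4.3.3) fitted quasi-likelihood models with TMM scaling on 9 groups of sample type and library set (8 residual degrees of freedom), with Benjamini-Hochberg adjustment at 0.05. On simulated data, the 4-comparison rule recovered 94.4% of genes changed 2-fold and 30% of those changed 1.5-fold, with 0 of 15612 unchanged genes called. Before the changes, the simulation gave both clones and both WT strains the same mean. It therefore does not cover differences of strain, library set or clone. Its changed genes were drawn only from genes with higher expected counts. limma 3.58.1 on log2(FPKM + 1) and DESeq2 1.42.0 were alternatives. Replicates were counted singly, since none differed by as little as sampling noise. Named genes were the 15 kept genes in each direction with the largest smallest change, a mean of at least 5 FPKM in either group and no overlap in FPKM, the 4 largest 1-strain genes per strain, Nanog and the delivered factors. Within a list, genes were named for their size of change or as defining genes, and exceptions were chosen after their values were seen. 1 list gene is not reported here by name. Members and lists were chosen with earlier results of these data known. Promoters were matched by symbol for 28 of 43 named genes. Depth was 7.80 to 43.5 M fragments, and limits from 3 counts cover counting error only.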

Additional observations from a re-analysis of the deposited data

Results flagged for a closer look

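Both results below differed between clones G2 and G5 under the same comparisons. Serpinb9c had 4.45 and 4.57 FPKM in G2 and 10.0 and 9.70 FPKM in G5, a log2 change of -1.10 for G2 against G5 (adjusted p = 0.000335, edgeR's quasi-likelihood test), while both clones were above 0 FPKM in 129/B6 WT iPSC and 0.0665 and 0.0293 FPKM in c57/b6 WT iPSC. Zscan4f had 21.0 and 24.4 FPKM in G2 and 44.1 and 50.4 FPKM in G5, a log2 change of -1.13 (adjusted p = 1.32e-05). G2 was the lower clone for both genes in 2 of 2 samples.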

How the results depend on the processing

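The 32 named genes that were kept held their direction and their side of the threshold under each alternative in which they were tested. Of all 43 named genes, 37 were tested with a filter of 5 CPM and 41 in a fit of the 7 iPSC libraries. All of the 32 but Nanog and Sox2 were chosen for large changes without overlap in these same libraries. That they held therefore follows in part from the choice. Of the other 11, the smallest of the 4 log2 changes, which is not a call shared by all 4, turned sign in some alternatives for Chit1, Gm20418, Klf4, Prrt3 and Tdpoz3. Kept genes numbered 5198 with DESeq2's size factors, 5169 with DESeq2's Wald test, 4231 and 4044 with limma on log2(FPKM + 1) and log2(FPKM + 0.1), and 6173 in a fit of the 7 iPSC libraries. With batch as an additive term they numbered 7938, of which 4875 were among the 5224, and higher genes made up 50.2% in place of 56.6%. Requiring 2-fold left 2329 kept genes (64.8% higher), 1703 of them also in Nanog-null ESC, 5287 for G2 and 4856 for G5 against 129/B6, 8371 for G5 against c57/b6, 7471 for 129/B6 against c57/b6 WT iPSC, 1293 for 129/B6 only and 635 for G2 against G5. The G2 against G5 count was 1492 and 946 with limma at pseudocounts 1 and 0.1, 4924 in the 7-library fit and 3588 in set AC alone. Leaving out 1 library gave 1173 (without G5 replicate 2) to 2285 for G2 against G5 and 4477 to 4957 kept genes. The 4 libraries whose loss moved the G2 against G5 count beyond 1.5 times were those of the clones, at 1173 to 1208, where the lone sample was assumed to vary like other groups. Replicate numbers did not pair G2 with G5 (correlation of deviations 0.0426 over 11507 genes), the pair of groups that was checked, and with a replicate block the kept genes numbered 5434 (4876 shared) and G2 against G5 3612. DESeq2's size factors moved the median log2 change of all genes against c57/b6 to 0.11 for G2 and 0.09 for G5. Among list members given by name, Krt18 lost its kept call with the filter of 5 CPM, and Cubn in several settings. List counts that fell by over 1.5 times were glycolysis kept lower (5 of 9, limma), interferon kept higher (4 of 7, replicate block), FGF-ERK kept higher (3 of 5, without G5 replicate 1) and BMP kept lower (1 of 3, without G5 replicate 2), with p53 and cell-cycle kept higher (2 of 4, limma at 0.1) and lists with 1 or 2 kept genes, among them streak and mesoderm kept lower (0 of 2 without either G5 library). The cause was not tested. In simulated data, 30% of genes changed 1.5-fold were recovered by the 4-comparison rule.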

Other observations

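The purine salvage gene Hprt, on the X chromosome, was among the kept-lower genes and was chosen after its values were seen. It had 9.90 and 12.6 FPKM in G2 and 5.57 and 6.71 FPKM in G5, against 106 FPKM in 129/B6 WT iPSC and 250 and 230 FPKM in c57/b6 WT iPSC. Nanog-null ESC averaged 6.94 FPKM, against 123 FPKM in 129/B6 WT ESC. All 6 Nanog-null samples were thus below every WT stem cell sample named here.

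Counts for other families, also picked after their values were seen, stand beside 18.4% of all genes kept higher and 14.1% kept lower. Of 6 Gata genes tested, 5 were kept higher, and 3 of 4 type IV collagen genes were. Of 15 FGF ligand genes, 6 were kept lower and 1 higher. Of 23 Hist1 histone genes, 12 were kept lower, 6 of them also lower in Nanog-null ESC. Of 8 Prmt genes, which encode protein arginine methyltransferases, 5 were kept lower and 1 higher, and 3 of 4 Ifitm genes were kept lower. Of 17 Sox genes, 6 were kept higher and 2 lower, of 41 collagen genes 16 and 2, and of 14 Wnt genes 6 were kept higher and none lower.

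Among multi-copy transcripts, Gm8730 differed between the iPSC and did not pass the test between the ESC. Gm8730 averaged 390 ± 6.75 FPKM in Nanog-null iPSC (SD, n = 4) and 15.1 ± 6.35 FPKM in WT iPSC (SD, n = 3), while Nanog-null ESC averaged 395 FPKM and 129/B6 WT ESC 394 FPKM (adjusted p = 0.953, edgeR's quasi-likelihood test). Rps13-ps1 had 79.7 to 103 FPKM in Nanog-null iPSC, 0.114 FPKM in 129/B6 WT iPSC and 0.650 and 0.293 FPKM in c57/b6 WT iPSC, with 105 FPKM in Nanog-null ESC and 81.4 FPKM in 129/B6 WT ESC (log2 change 0.39, adjusted p = 0.0155). Gm12666 had 4.08 to 6.76 FPKM in Nanog-null iPSC and 0 FPKM in all 3 WT iPSC samples, with 5.15 FPKM in Nanog-null ESC and 3.23 FPKM in 129/B6 WT ESC (log2 change 0.70, adjusted p = 0.0135). Such copies share sequence with other genes, and how fragments were assigned to them is uncertain.

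On chromosome 15, the median log2 change over 396 genes was -0.21 for G2 against G5, beside 0.0045 over the 10002 genes read by chromosome. A larger shift was on chromosome 8 in ESC, where the median over 513 genes was -0.41 for Nanog-null ESC against 129/B6 WT ESC. Over the 10002 genes that median was -0.0138. Against 129/B6 WT iPSC, the chromosome 8 median was -0.01 for G2 and -0.07 for G5. The cause of these shifts was not tested.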
